A study of Mus musculus with 60 samples.

Results

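The transcripts described here are those of the mitochondrial respiratory chain and ATP synthase that are encoded in the nucleus, measured in the cortex of 30 inbred mouse strains. Genes were taken by symbol: those starting with Nduf followed by a, b, c, s or v and a number (complex I), Sdh a to d (complex II), Uqcr (complex III), Cox4 to Cox8 (complex IV) and Atp5 (complex V). Of 18193 genes on the array with a probe set of their own, 81 fitted these symbols. A gene counted as measured when its log2 intensity reached 4 in at least 6 of the 60 arrays, which held for 76 of the 81 and for 11886 genes in all. The 76 comprised 33 of 35 complex I genes, 4 of 4 for complex II, 8 of 8 for complex III, 14 of 17 for complex IV and 17 of 17 for complex V.

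Each strain gave 2 arrays of male mice aged 10 to 11 weeks: a control array of mice drinking water without drug (0 mg/kg) and an array of mice given fluoxetine, an antidepressant that blocks serotonin reuptake, by mouth at 18 mg/kg per day. Treatment lasted 21 days, and mice of both groups then went through a tail suspension and an open field test. RNA of 3 mice was pooled for each array, so the 30 strains are the replicates of the treatment and a strain's response has no replicate of its own. The strains are named with the account of Ndufs5.

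The respiratory chain passes electrons from NADH, through complex I, and from succinate, through complex II, to ubiquinone, then through complex III and cytochrome c to complex IV, where oxygen is reduced. Complexes I, III and IV pump protons across the inner mitochondrial membrane, and complex V, the ATP synthase, uses the gradient to make ATP. Neurons of the cortex draw most of their ATP from this system, and the transcripts of its subunits are among the abundant messages of the brain. Some subunits of complex IV have tissue forms, such as the heart and muscle forms Cox6a2, Cox7a1 and Cox8b, beside the ubiquitous forms Cox6a1, Cox7a2 and Cox8a.

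Neuronal markers were bright: Snap25, part of the synaptic release machinery, and Rbfox3, the NeuN antigen, had median log2 intensities of 15.68 and 13.63. Of the striatal markers, Drd1 had a median of 8.10, Rgs9 ran from 6.14 to 8.78 and Drd2 had a median of 2.07. The muscle markers Ckm, Myh4 and Tnnt3 were at or near the array floor of 2.07, with medians of 2.07, 2.08 and 2.07, while Acta1 had a median of 8.58. Hba-a1, a haemoglobin gene of red blood cells, was at 2.07 on every array, while Alas2, another red blood cell marker, ran from 3.59 to 4.68. Ttr, a choroid plexus gene, ran from 4.25 to 15.09 over the arrays, while the choroid plexus genes Folr1 and Kl had medians of 2.71 and 3.41. Median intensity per array was 39.1 to 43.1 on the linear scale, any 2 arrays correlated at 0.966 to 0.997 over genes, and the number of arrays limits the precision. In this bulk tissue, fewer cells of a type and less RNA per cell cannot be told apart.

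Of the 5 unmeasured genes, Ndufb4 and Ndufa4l2 belong to the complex I symbols, and Cox4i2, Cox7b2 and Cox8c are tissue isoforms of complex IV. Ndufa4l2 reached the threshold on 1 array, the water array of C57BR/cdJ, and the other 4 on none. Just inside the threshold were Cox6b2, the testis form of subunit 6b, with 8 arrays from 5 strains, and Cox8b with 8 arrays from 8 strains. By contrast 70 of the 76 had a median strain mean of log2 10 or more. Ndufa11 and Ndufs6 lay only on probe sets shared with a near copy and were not used. Ndufb4 had 2 further probe sets, shared with Ndufb4b and Ndufb4c and not used, so its place below the threshold rests on 1 probe set. Intensities of different probe sets are not comparable, so levels are compared across strains and treatments within a gene only.

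Chronic fluoxetine left the respiratory chain transcripts close to their water levels. None of the 76 genes passed the threshold (adjusted p under 0.05, limma with strain as a block), against 7 of 11886 genes, or 0.0589%. At an unadjusted p under 0.05 limma gave 1 of 76 genes, Cox7a1, which was higher; the same mark was passed by 1819 of all genes, or 15.3%, of which 7.3% of all genes were higher and 8.0% lower. Differences of fluoxetine minus water, in log2 units, ran from -0.03 to 0.09 over the 76 genes. Their median was -0.0064 beside -0.0029 over all genes tested, and their median size without sign was 0.01 beside 0.03. The spread that remained within strains was smaller too, with a median SD per array of 0.0656 beside 0.112 over all genes and 0.0806 over the 4432 genes at log2 10 or more.

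Most of these small differences were below 0: 52 of 76, where 53.1% of all genes were below 0. By complex the counts below 0 were 23 of 33 for complex I, 3 of 4 for complex II, 5 of 8 for complex III, 9 of 14 for complex IV and 12 of 17 for complex V. The medians by complex were -0.0053, -0.009, -0.0086, -0.01 and -0.0075 in the same order. The 95% intervals bound what a change could have been on average over strains. Among the 70 brighter genes the lowest bound was -0.08 for Cox8a, which is -5.53% on the linear scale, and the highest was 0.07 for Ndufv3, or 5.28%. Over all 76 genes the bounds were -0.17 for the dim Cox7c probe set (-10.9%) and 0.15 for Cox7a1 (10.9%). No member of the 70 had an unadjusted limma p under 0.05, where 688 of all 4432 genes at log2 10 or more did. These were not matched to the 70 in brightness above that level.

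**Figure D1:**
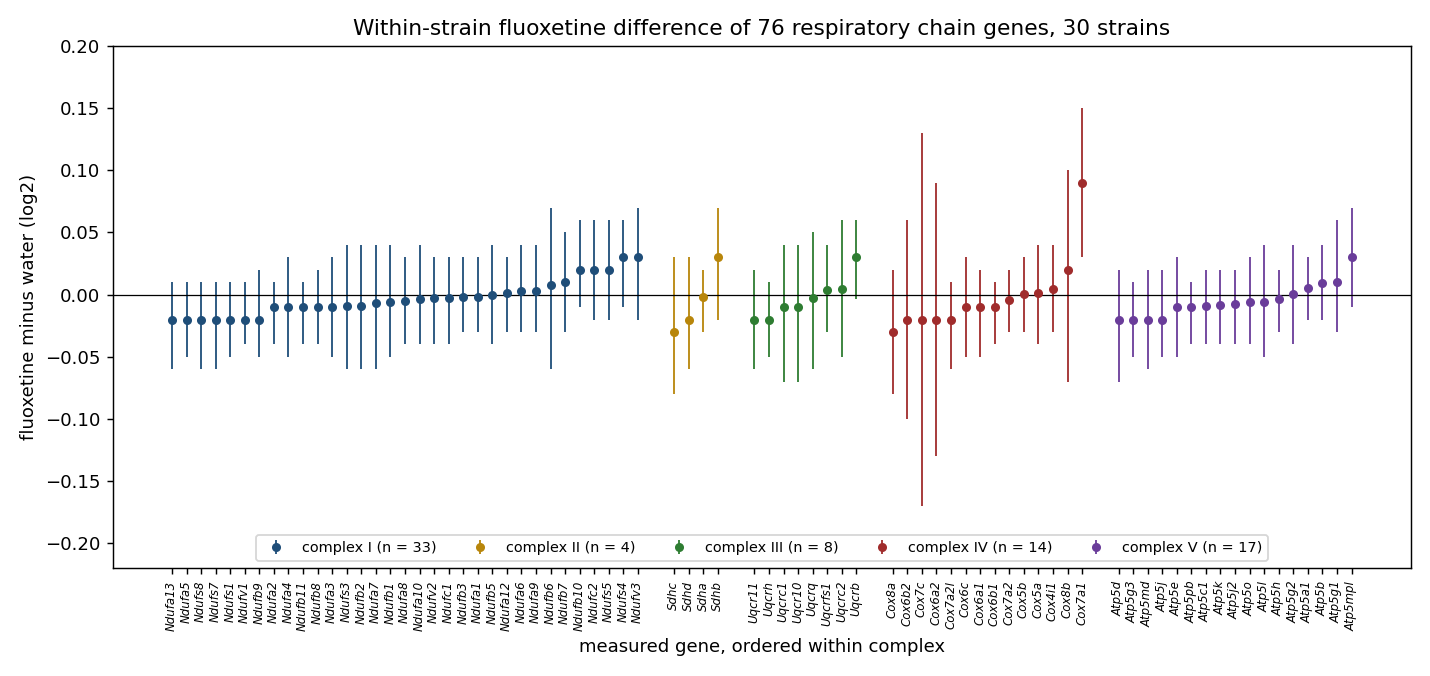
Mean within-strain difference of fluoxetine minus water (log2, vertical axis) for the 76 measured genes, ordered within complexes I to V; points are means over 30 strains and bars are 95% intervals from limma. Cox7a1, at 0.09, is the point whose interval lies wholly above 0, and the wide bars belong to the dim probe sets of complex IV.

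In complex I, the 33 genes held between -0.02 and 0.03. Ndufa13, an accessory subunit also known as GRIM-19, had water arrays at 12.95 (lowest), 13.17 (median) and 13.38 (highest) and fluoxetine arrays at 13.01, 13.15 and 13.34. The groups overlapped almost wholly, and the difference was -0.02 (SE 0.0161, n = 30 strains; limma adjusted p = 0.539), lower in 19 strains and higher in 11. Ndufs4, a small accessory subunit beside the electron input module, lay at 10.45, 10.77 and 10.90 on water and at 10.59, 10.76 and 11.00 on fluoxetine. Its difference was 0.03 (SE 0.018; limma adjusted p = 0.546), with 17 strains higher and 13 lower. These were the complex I genes with the smallest p, and neither separated the groups.

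In complex II, succinate dehydrogenase, 3 of the 4 differences were below 0 and none passed the test. Sdhb, the iron-sulfur subunit, ranged over 12.47, 12.72 and 13.07 on water and 12.49, 12.74 and 13.04 on fluoxetine, a difference of 0.03 (SE 0.0207; limma adjusted p = 0.585). Sdhc, a membrane anchor, ranged over 11.46, 11.93 and 12.16 on water and 11.45, 11.85 and 12.21 on fluoxetine, a difference of -0.03 (SE 0.0262; limma adjusted p = 0.701) that was negative in 19 strains. Sdha, the flavoprotein that oxidises succinate, and Sdhd, the other anchor, differed by -0.0015 (SE 0.0124) and -0.02 (SE 0.0237). All 4 ranges overlapped between the groups.

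Uqcrb, a ubiquinone-binding subunit of complex III, had the smallest adjusted p of the 70 respiratory chain genes at log2 10 or more. It lay at 13.56, 13.75 and 13.90 on water and at 13.55, 13.78 and 13.95 on fluoxetine, with overlapping groups. The difference was 0.03 (SE 0.0155; limma adjusted p = 0.394), higher in 19 strains and lower in 11. Uqcrh, the hinge protein that holds cytochrome c1, differed by -0.02 (SE 0.0157; limma adjusted p = 0.638), with 14 strains higher and 16 lower. Uqcrc2, a core subunit, differed by 0.0045 on average, but its within-strain differences ran from -0.14 in SJL/J to 0.68 in BUB/BnJ, where the water array read 13.88 and was the lowest of all.

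Cox7a1, the heart and muscle form of complex IV subunit 7a, had the lowest p of the 76 genes. On water its probe set read 5.18, 5.67 and 6.34, and on fluoxetine 5.37, 5.71 and 6.42, so the groups overlapped over most of their range. The mean difference was 0.09 (SE 0.0299, n = 30 strains; unadjusted p = 0.00619, limma adjusted p = 0.153), which is 6.27% on the linear scale, with 21 strains higher and 7 lower. The largest rise was 0.58 in NOR/LtJ and the largest fall was -0.25 in CE/J. Without NOR/LtJ the difference was 0.07. The muscle gene Acta1 differed by 0.03 (limma adjusted p = 0.725) and the other 3 muscle markers were at or near the floor. Of the 4 blood vessel markers, Tek and Flt1 differed by -0.11 and -0.10 (limma adjusted p = 0.204 and 0.205) and Cldn5 and Pecam1 by 0.02 and 0.04 (adjusted p = 0.811 and 0.833). The part of these cells in the result was not tested.

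The other tissue forms were read against their ubiquitous partners without any comparison of level. Cox6a2 differed by -0.02 (SE 0.0537; limma adjusted p = 0.905) with 15 strains in each direction, and Cox6a1 by -0.01 (SE 0.0173; adjusted p = 0.768). Cox8b and Cox8a differed by 0.02 (SE 0.042) and -0.03 (SE 0.0253), and Cox6b2 and Cox6b1 by -0.02 (SE 0.0396) and -0.01 (SE 0.0137). Cox7a2, the liver and ubiquitous form, and Cox7a2l, a relative that helps assemble respiratory supercomplexes, differed by -0.004 (SE 0.0111) and -0.02 (SE 0.0182). Cox4i1, Cox5a and Cox5b, subunits of complex IV in most tissues, were within 0.0045 of 0. Ndufa4, named for complex I and later found in complex IV, differed by -0.01 (SE 0.0177; limma adjusted p = 0.828).

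In complex V, Atp5mpl, a small proteolipid also known as MP68, read 11.99, 12.34 and 12.54 on water and 12.18, 12.34 and 12.62 on fluoxetine. Its difference was 0.03 (SE 0.0205; limma adjusted p = 0.509), with 20 strains higher and 9 lower. Atp5d, the delta subunit of the central stalk, read 12.43, 12.73 and 12.93 on water and 12.40, 12.70 and 13 on fluoxetine, a difference of -0.02 (SE 0.0216; limma adjusted p = 0.639). The groups overlapped for both. The 3 genes Atp5g1, Atp5g2 and Atp5g3, which encode the same mature ring protein behind different import sequences, differed by 0.01 (SE 0.0221), 0.00034 (SE 0.0193) and -0.02 (SE 0.0152).

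The mean over the 76 genes differed between the arrays of single strains, in opposite directions. Mean differences of fluoxetine minus water were highest in C57BL/6J, at 0.10 with 66 of 76 genes higher, and in NZW/LacJ, at 0.09 with 65 higher. They were lowest in C57BR/cdJ, at -0.11 with 62 lower, and at -0.06 in CBA/J and in MRL/MpJ. For C57BR/cdJ complexes III and IV had the lowest means, -0.14 and -0.20, and for NZW/LacJ complex III had the largest mean, 0.14. The complex IV mean of C57BR/cdJ leans on the dim Cox7c and Cox6a2 probe sets, which differed by -1.16 and -0.70 there. Of its 14 complex IV genes 11 were lower and 3 higher. With 1 array per strain and treatment these are values without replicates.

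Other readouts are given for the same strains. In C57BR/cdJ 60.2% of all genes were lower on the fluoxetine array, Ttr differed by -8.35 and the 5 astrocyte markers by 0.42 on average, while a list of mitochondrial mass genes differed by 0.006, the citric acid cycle by -0.01 and the assembly factors by 0.0035. In C57BL/6J 39.6% of all genes were lower, and the same 3 lists differed by 0.09, 0.08 and 0.12 and the neuron markers by 0.10, where C57BR/cdJ had -0.07. In NZW/LacJ 49.5% of all genes were lower. The median shift of the C57BL/6J water array over all tested genes, -0.08, was the lowest of the 60 arrays, and its 76 genes averaged -0.12, the lowest of the 30 water arrays. With every array centred on its own median, C57BL/6J kept a mean difference of 0.08 and C57BR/cdJ one of -0.08, and neither sign changed with quantile normalization. The part of array scale or tissue content in these values was not tested.

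The same transcripts were also compared between strains. The strain F-test of limma passed the threshold for 71 of the 76 genes, beside 88.3% of all genes tested. By complex these were 31 of 33, 4 of 4, 8 of 8, 13 of 14 and 15 of 17, from complex I to complex V. The 13 include Cox6b2, which met the log2 threshold only through 8 arrays from 5 strains. The 5 that did not pass were Ndufb1 and Ndufa12 in complex I, Cox8b in complex IV, and Atp5md and Atp5j in complex V. The median intraclass correlation, the share of variance that both arrays of a strain have in common, was 0.622 beside 0.593 over all genes. Strain cannot be told apart from any batch in which its pair of arrays was processed together.

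The strain differences of the respiratory chain were narrow. The median distance from the lowest to the highest strain mean was 0.40 log2 units, beside 0.68 over all genes. Among genes at log2 10 or more it was 0.39 for the 70 brighter members and 0.50 for all 4432. By complex the medians were 0.37 (I), 0.58 (II), 0.50 (III), 0.53 (IV) and 0.34 (V). Ndufb11 of complex I had the narrowest range, 0.23. Ranges above 1 were found for Ndufs5 in complex I and for the dim Cox6a2, Cox6b2, Cox7a1 and Cox7c probe sets in complex IV.

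**Figure D2:**
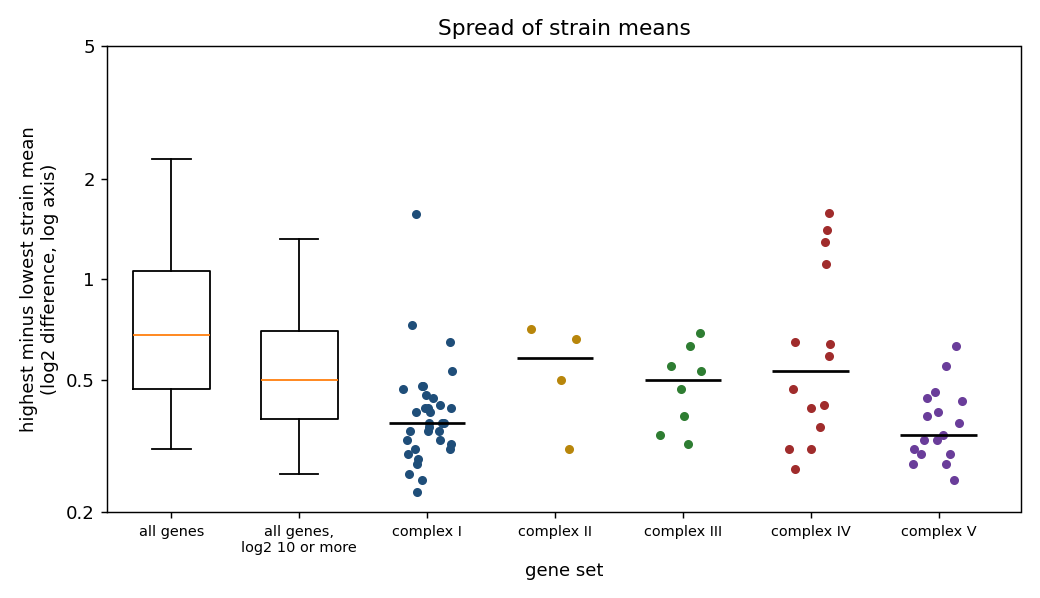
Highest minus lowest strain mean (log2 difference on a log axis); boxes show the median and the quartiles of all 11886 genes and of the 4432 genes at log2 10 or more, whiskers the 5th and 95th percentiles, points the 76 respiratory chain genes by complex and thick bars the complex medians. Complexes I and V centre on 0.37 and 0.34, below the medians of both boxes, and the complex I point at 1.57 is Ndufs5.

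Ndufs5, a 15-kDa accessory subunit of the membrane arm of complex I, split the strains into 2 groups of 15. Strain means ran from 11.58 in NOD/LtJ to 13.15 in AKR/J (limma F-test adjusted p = 1.07e-23; intraclass correlation 0.986). Between 12.15 in RIIIS/J and 12.94 in C57BR/cdJ no strain was found, a gap of 0.79 that makes up 50.39% of the whole range. Water arrays of the 15 lower strains read 11.54, 11.96 and 12.12 (lowest, median, highest) and those of the 15 higher strains 12.87, 12.99 and 13.11. Fluoxetine arrays read 11.56, 11.97 and 12.22 against 12.90, 13.01 and 13.19, so every strain kept its side on its other array. A gap as wide with at least 3 strains on each side was found in 218 genes, or 1.83% of those tested.

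The lower 15 strains were NOD/LtJ, BUB/BnJ, NZB/BlNJ, FVB/NJ, SWR/J, C58/J, 129S1/SvImJ, BTBRT T(+) tf/J, LP/J, I/LnJ, C57BLKS/J, NOR/LtJ, NZW/LacJ, SM/J and RIIIS/J. The higher 15 were C57BR/cdJ, C57BL/6J, A/J, C3H/HeJ, MA/MyJ, SJL/J, P/J, CBA/J, BALB/cJ, DBA/2J, MRL/MpJ, PL/J, LG/J, CE/J and AKR/J. C57BL/6J and C57BR/cdJ thus stood above the gap while C58/J and C57BLKS/J stood below it. A further probe set, annotated to Ndufs5 together with the pseudogene Ndufs5-ps, did not show the gap: strain means were 13.17 to 13.63 on the lower side and 13.53 to 13.79 on the higher side, which overlap. Which of these probe sets follows the transcript level was not tested. Probe sequences and strain variants under them were not analysed here, so the split is one of probe set intensity. Fluoxetine made little difference to it, at 0.02 (SE 0.0182; limma adjusted p = 0.652), with 20 strains higher and 10 lower.

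**Figure D3:**
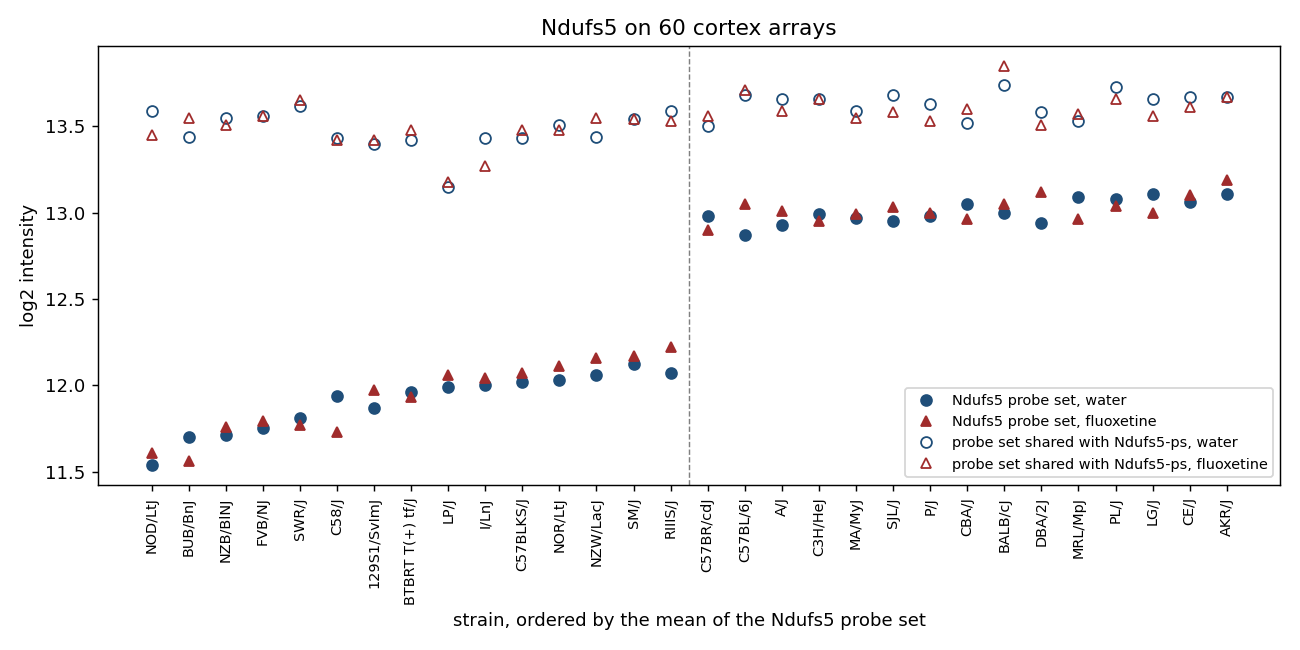
Log2 intensity of the Ndufs5 probe set (filled) and of the probe set shared with Ndufs5-ps (open) on all 60 arrays, strains ordered by the mean of the Ndufs5 probe set, water as circles and fluoxetine as triangles; the dashed line marks the gap. The filled points of the lower 15 strains end at 12.22 and those of the higher 15 start at 12.87, while the open points of both sides overlap.

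The promoter windows of 4 genes whose strain pattern is described here are shown to give the start site regions of these transcripts, as RefSeq places them on GRCm38.p6 (250 bases before and 50 after the start). They are written 5′ to 3′ along the gene, and capitals mark a match to a motif, on either strand. Ndufs5 lies at chr4:123718137-123718436 on the minus strand, Uqcrh at chr4:116075021-116075320 on the minus strand, Atp5g1 at chr11:96075582-96075881 on the minus strand and Ndufc2 at chr7:97399753-97400052 on the plus strand.
Ndufs5: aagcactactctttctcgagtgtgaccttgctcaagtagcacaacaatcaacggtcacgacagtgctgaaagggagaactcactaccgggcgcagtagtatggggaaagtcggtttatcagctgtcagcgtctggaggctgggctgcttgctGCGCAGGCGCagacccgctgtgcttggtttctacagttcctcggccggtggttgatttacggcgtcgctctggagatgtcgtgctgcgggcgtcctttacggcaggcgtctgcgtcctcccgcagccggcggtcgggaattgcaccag
Uqcrh: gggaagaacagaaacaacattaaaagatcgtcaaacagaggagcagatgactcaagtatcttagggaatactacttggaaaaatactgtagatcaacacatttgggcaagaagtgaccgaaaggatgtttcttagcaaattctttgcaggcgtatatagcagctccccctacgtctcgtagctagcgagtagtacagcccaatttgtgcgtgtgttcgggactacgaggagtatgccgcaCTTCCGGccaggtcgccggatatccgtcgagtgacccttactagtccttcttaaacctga
Atp5g1: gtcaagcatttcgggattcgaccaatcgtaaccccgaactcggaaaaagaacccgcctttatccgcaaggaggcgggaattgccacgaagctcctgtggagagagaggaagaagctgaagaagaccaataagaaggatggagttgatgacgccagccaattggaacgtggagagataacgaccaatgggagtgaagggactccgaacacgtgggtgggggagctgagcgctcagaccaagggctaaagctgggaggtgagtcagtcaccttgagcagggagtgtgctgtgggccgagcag
Ndufc2: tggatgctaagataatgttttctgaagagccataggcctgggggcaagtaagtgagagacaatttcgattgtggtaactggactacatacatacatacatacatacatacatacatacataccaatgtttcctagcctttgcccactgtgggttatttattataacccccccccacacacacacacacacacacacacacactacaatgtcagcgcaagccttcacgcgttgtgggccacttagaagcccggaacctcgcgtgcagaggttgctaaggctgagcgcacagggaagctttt

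The motifs searched were the letters GCGCA, any base and GCGC in a row, bound by NRF1, a regulator of many respiratory genes, CCGGAAG, the core bound by ETS factors such as GABP, and AAGATGG, bound by YY1, each on both strands. The ETS and YY1 letters can overlap at AAG. The Ndufs5 window holds the NRF1 letters from position -98 relative to the start, the Uqcrh window holds the ETS letters in reverse complement from position -10, and the windows of Atp5g1 and Ndufc2 hold none of the 3. Of the 76 genes 64 were found in the promoter table. The NRF1 motif was present in 14 of them (21.9%), beside 4.6% of 32851 promoters and 11.6% of 9645 tested genes with a promoter. The ETS motif was present in 17 (26.6%; 8.86% of promoters and 19.4% of tested genes) and the YY1 motif in 10 (15.6%; 6.34% and 8.38%). By complex the NRF1 motif was found in 4 of 30, 2 of 3, 1 of 5, 1 of 11 and 6 of 15 genes, from I to V. A match is a description of the letters only.

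In the rest of complex I, Ndufa10, an accessory subunit, ranged from 12.21 in PL/J through a median of 12.57 to 12.87 in LG/J (limma F-test adjusted p = 7.82e-06). Ndufv1, which carries the FMN that takes electrons from NADH, ranged from 12.58 in NZW/LacJ to 12.99 in LG/J (adjusted p = 1.1e-05). Ndufc2, an accessory subunit of the membrane arm, was chosen after its values were seen. Its strain means ran from 13.28 in LG/J to 13.81 in C57BL/6J (limma F-test adjusted p = 5.34e-05), and the 4 highest were the 4 strains with C57 or C58 in their names: C57BR/cdJ at 13.62, C57BLKS/J at 13.64, C58/J at 13.76 and C57BL/6J at 13.81. These 4 strains were the highest in 20 of all genes tested, or 0.168%. Other probe sets of Ndufc2 correlated with the one used at 0.439 and 0.553 over the 30 strain means, and both were highest in C57BR/cdJ.

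All 4 genes of complex II passed the strain test. Sdhc ranged from 11.49 in C57BLKS/J through 11.92 to 12.15 in NOR/LtJ (limma F-test adjusted p = 1.42e-06; intraclass correlation 0.743). The 5 lowest strain means of Sdhc were those of C57BLKS/J, C58/J, C57BR/cdJ, BALB/cJ and C57BL/6J, from 11.49 to 11.59, so the 4 strains named C57 or C58 lay at the bottom for Sdhc and at the top for Ndufc2. Those 4 strains were among the 5 lowest in 56 genes, or 0.471%. A further Sdhc probe set correlated with it at 0.909 over the 30 strain means, which share their libraries, but was lowest in BTBRT T(+) tf/J and highest in NOD/LtJ.

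Sdha ranged from 12.45 to 12.76 (adjusted p = 4.12e-06), Sdhb from 12.49 to 12.99 (adjusted p = 1.85e-05) and Sdhd from 10.15 to 10.86 (adjusted p = 1.55e-04), all in the limma F-test. These 3 were lowest in 129S1/SvImJ. For Sdha another bright probe set was also lowest in 129S1/SvImJ, whereas for Sdhd the other probe set correlated at -0.266 with the one used and placed 129S1/SvImJ 26th from the bottom.

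**Figure D4:**
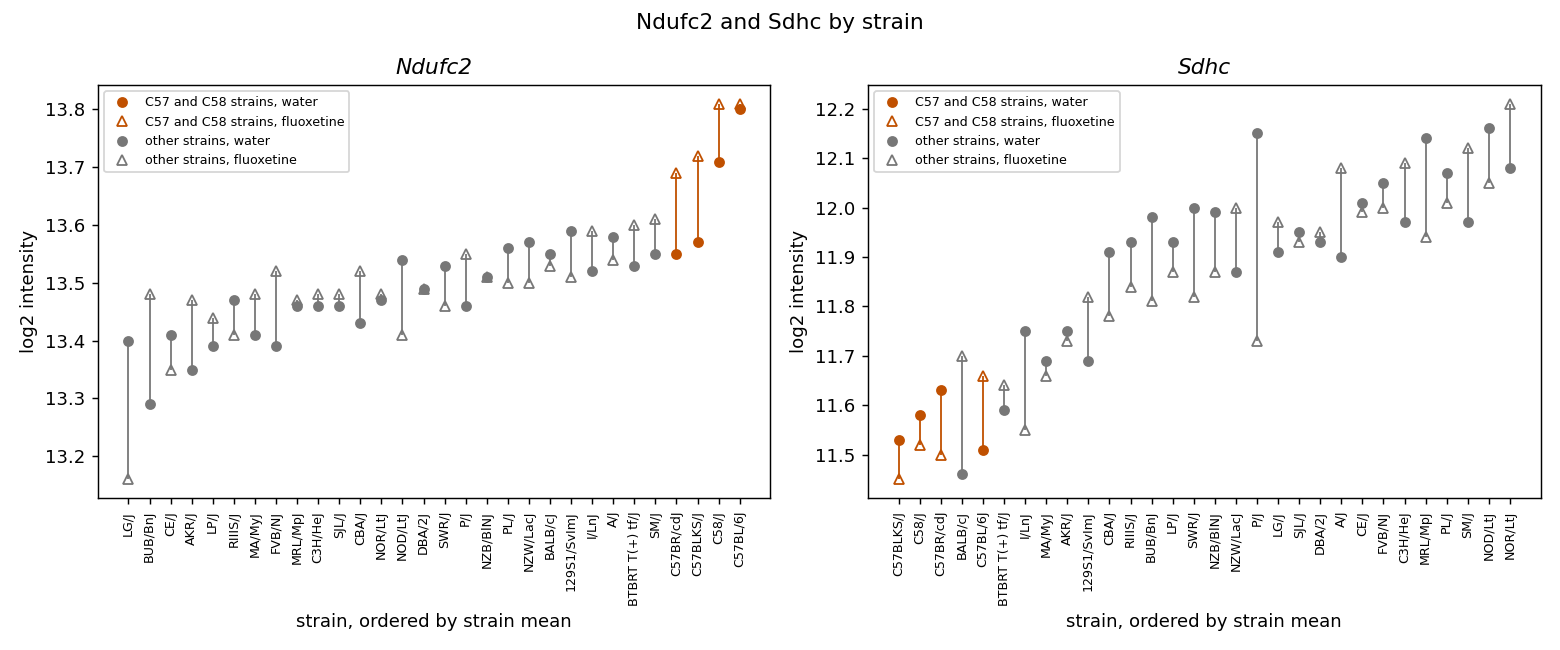
Log2 intensity of Ndufc2 (left) and Sdhc (right) by strain, ordered by strain mean, with the water array as a circle and the fluoxetine array as a triangle joined by a line. The 4 strains named C57 or C58 (orange) are the highest for Ndufc2, from 13.62 to 13.81 in their means, and 4 of the 5 lowest for Sdhc.

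In complex III, 7 of the 8 genes had their lowest strain mean in 129S1/SvImJ; in the other, Uqcrc2, it had the highest, at 14.68. Uqcrh ranged from 13.13 in 129S1/SvImJ through 13.38 to 13.68 in NZB/BlNJ (limma F-test adjusted p = 1.65e-06), and its other probe set had the same lowest and highest strain. Uqcrq, a small ubiquinone-binding subunit, ranged from 11.70 to 12.39 in LG/J (adjusted p = 1.83e-04), and Uqcrfs1, the Rieske iron-sulfur protein, from 12.13 to 12.45 in CBA/J (adjusted p = 1.92e-04), both in the limma F-test. For Uqcrc2 the other probe set correlated at -0.621 over strains and put 129S1/SvImJ 7th from the bottom. For Uqcrb the other one correlated at -0.281 and put 129S1/SvImJ 19th from the bottom. Further, dimmer probe sets of Uqcr10 correlated at 0.102 and 0.0727 and put 129S1/SvImJ 25th and 26th. The count of lowest means in this strain thus depends on the probe sets used.

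In complex IV, Cox5b, a nuclear-encoded subunit on the matrix side, separated the strains most by p. It ranged from 13.54 in FVB/NJ through 13.79 to 13.97 in LP/J (limma F-test adjusted p = 1.75e-08; intraclass correlation 0.855), and the other 3 bright probe sets of the gene correlated with it at 0.782 to 0.971 over strains. Its partner Cox5a ranged from 14.05 to 14.46. Cox6a1 ranged from 14.76 in C3H/HeJ through 14.98 to 15.23 in LG/J (adjusted p = 3.73e-07). Cox6b2 ranged from 3.14 in C57BL/6J to 4.43 in LG/J (limma F-test adjusted p = 1.46e-07), near the array floor, with its highest values in a few strains. It met the log2 threshold on 8 arrays from 5 strains, LG/J among them. The strain test thus used the same high values that let the gene in and gives no separate support.

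Cox6a2, the muscle form that interneurons containing parvalbumin also use, ranged from 5.86 in FVB/NJ through 6.55 to 7.26 in C57BL/6J (limma F-test adjusted p = 1.3e-05). Pvalb itself ranged from 10.47 in RIIIS/J to 11.35 in SJL/J. C57BL/6J, highest for Cox6a2, was at 10.49 for Pvalb, among the lowest, and SJL/J was high for both, with Cox6a2 at 7.01. Cox7a1 ranged from 5.27 in I/LnJ to 6.38 in NZB/BlNJ (limma F-test adjusted p = 1.19e-06). Cox7a2l ranged from 11.76 in SM/J to 12.06 in LG/J, with C57BL/6J at 11.78 and BALB/cJ at 11.91 (limma F-test adjusted p = 0.0015).

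In complex V the alpha, beta and gamma subunits each passed the strain test over a narrow range. Atp5b, the beta subunit, ranged from 14.13 in SM/J to 14.51 in LG/J (limma F-test adjusted p = 0.00203). Atp5a1, the alpha subunit, ranged from 13.78 in 129S1/SvImJ through 13.93 to 14.11 in CE/J (limma F-test adjusted p = 8.05e-07), and Atp5c1, the gamma subunit of the rotor, from 13.32 to 13.60 in LG/J (adjusted p = 2.47e-06). Atp5g1, a gene of the membrane ring, varied more, from 11.75 in 129S1/SvImJ through 12.09 to 12.38 in NOD/LtJ (limma F-test adjusted p = 3.32e-08; intraclass correlation 0.816). Atp5g2 ranged from 11.44 in C57BL/6J to 11.88 in AKR/J and Atp5g3 from 14 in SWR/J to 14.33 in LG/J.

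Over the 76 genes together, 129S1/SvImJ lay lowest and LG/J highest in the values as deposited and after quantile normalization. This did not hold after each array was centred on its median. With all probe sets of a gene averaged, C58/J lay as low as 129S1/SvImJ. As deposited, the mean deviation of 129S1/SvImJ from the mean of 30 strains was -0.12. It was -0.10 on its water array and -0.15 on its fluoxetine array. In this strain 65 of 76 genes (85.5%) were below the mean of strains, beside 60.7% of all genes. It was the lowest strain for 27 of 76 genes, beside 8.91% of all genes. By complex its means were -0.11, -0.25, -0.19, -0.11 and -0.11, and it was lowest in 8 of 33, 3 of 4, 7 of 8, 3 of 14 and 6 of 17 genes of complexes I to V.

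LG/J showed the reverse. Its mean deviation was 0.13, from 0.14 on water and 0.11 on fluoxetine. There 66 genes were above the mean of strains and 13.2% were below it, where 38.4% of all genes were below. It was the highest strain for 30 of 76 genes, beside 10.3% of all genes. Its means by complex were 0.11, 0.15, 0.17, 0.14 and 0.12. The next lowest strains were C58/J and SWR/J, each at -0.08, and the next highest AKR/J at 0.09 and CE/J at 0.08. With median centring SWR/J, at -0.10, lay below 129S1/SvImJ at -0.09, and AKR/J and MRL/MpJ, each at 0.09, lay above LG/J at 0.08. 129S1/SvImJ was then the lowest strain in 15 genes and SWR/J in 13, beside 6.58% and 4.32% of all genes. LG/J was the highest in 15 and AKR/J in 14, beside 7.32% and 3.97% of all genes. With all probe sets of a gene averaged, 129S1/SvImJ and C58/J were each at -0.08 and LG/J was highest at 0.1. Without the _x_at and _s_at probe sets (71 genes) 129S1/SvImJ was lowest at -0.12 and LG/J highest at 0.13. C57BL/6J was at -0.06 as deposited, -0.05 after quantile normalization and 0.0035 after median centring. The deposited values partly followed the order in which the samples are listed. Strains listed from 129S1/SvImJ to C58/J had deviations of -0.12 to 0.01, with 49.8% to 66.8% of all genes below the mean. Those from BTBRT T(+) tf/J to NOD/LtJ had -0.03 to 0.13, with 36% to 51.5% below. No batch was given for these arrays, and its part in this order was not tested.

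**Figure D5:**
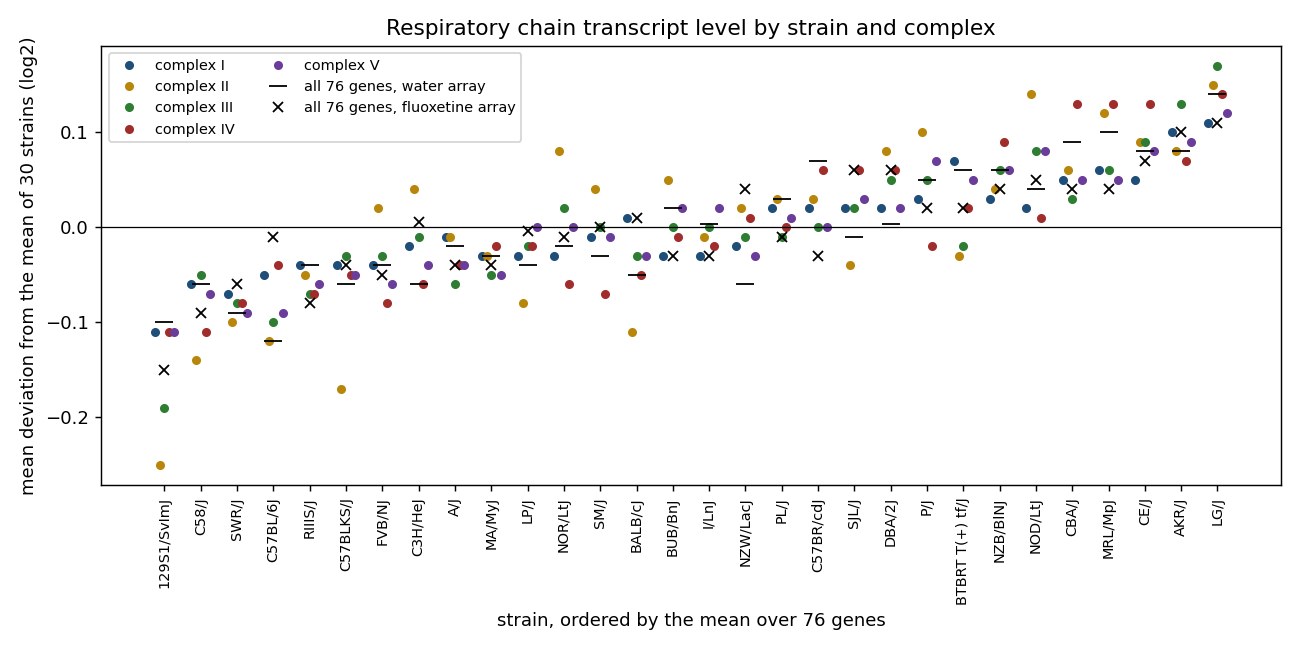
Mean deviation of respiratory chain genes from the mean of 30 strains (log2), by strain and complex (coloured points, mean of the arrays of both treatments), with the mean over all 76 genes on the water array (bar) and on the fluoxetine array (cross). 129S1/SvImJ is lowest, with complex II at -0.25, LG/J is highest, and the bar and cross of C57BL/6J and C57BR/cdJ stand apart.

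Other genes and cell markers followed these 2 strains in part. The mitochondrial mass list, 14 measured genes of import, carriers and chaperones, was also lowest in 129S1/SvImJ (-0.11) and highest in LG/J (0.11). The citric acid cycle list stood at -0.09 and 0.07 in these strains, the assembly factors at 0.0014 and 0.05, and the other subunits and carriers at -0.07 and -0.04. The 4 neuron markers averaged -0.10 in 129S1/SvImJ and 0.13, the highest of all strains, in LG/J. The 4 endothelium markers averaged -0.23 and 0.20 in the same order, and the 2 measured striatum markers -0.18 and 0.12. The 5 microglia markers were low in both strains, at -0.42 and -0.38, as were the 5 astrocyte markers, at -0.19 and -0.10. The 5 oligodendrocyte markers averaged 0.04 and -0.16. The 3′ minus 5′ signal of Actb, a measure of RNA integrity, was 1.49 and 1.42 on the 129S1/SvImJ arrays and 1.36 and 1.42 on those of LG/J, within the ranges of 1.17 to 1.53 on water and 1.25 to 1.58 on fluoxetine. The part of these readouts in the strain order was not tested.

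Probe sets of the same gene did not always give the same strain order. Of the 76 genes 44 had further measured probe sets, 70 in all. Their strain means correlated with those of the probe set used at a median of 0.599, over 0.8 for 20 probe sets and below 0 for 18 probe sets of 17 genes. The lowest correlation was -0.621 and the highest 0.98, for Cox8a, whose probe sets were low in 129S1/SvImJ and C58/J and highest in LG/J.

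No gene of the lists around the chain passed the limma threshold for fluoxetine. Of 39 measured assembly factors, which insert cofactors and build the complexes, 5 had an unadjusted p under 0.05, 1 higher and 4 lower, where 15.3% of all genes did, and the median difference was 0.00092. Foxred1, a complex I assembly factor, had a difference of -0.09 (SE 0.0231; limma adjusted p = 0.0764), lower in 24 of 30 strains. Sco1, a copper chaperone of complex IV, had one of -0.20 (SE 0.0646; limma adjusted p = 0.138), lower in 22 strains. Between strains 37 of the 39 passed the F-test, beside 88.3% of all genes. Cox18, which inserts a complex IV subunit into the membrane, ranged from 9.44 in SJL/J to 10.58 in MA/MyJ, and Acad9, a complex I assembly factor, from 7.24 in FVB/NJ to 9.67 in LG/J (limma F-test adjusted p = 6.11e-19 and 1.05e-18).

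Of 16 regulators of mitochondrial biogenesis, limma called none, and 2 had an unadjusted p under 0.05, where 15.3% of all genes did. These were Esrrg, an orphan nuclear receptor, at -0.11 (SE 0.0374; limma adjusted p = 0.169), and Tfam, which packages mitochondrial DNA, at 0.05 (SE 0.0205; limma adjusted p = 0.232). Gabpb1, a partner of the ETS factor GABP, ranged between strains from 4.94 in SM/J to 8.27 in SJL/J, with a median of 8.04 (limma F-test adjusted p = 4.79e-16). Tfb2m, a mitochondrial transcription factor, ranged from 10.24 in BALB/cJ to 10.94 in AKR/J. Of these 16 genes 14 passed the strain test, near the share of all genes, 88.3%.

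The other lists gave 0 genes at an unadjusted limma p under 0.05: 8 other subunits and carriers, 11 citric acid cycle genes and 14 mitochondrial mass genes. The genes with the smallest p were Etfdh at 0.04 and Dld at -0.03 in the first list, Suclg1 at 0.04 and Sucla2 at -0.02 in the citric acid cycle, and Hspd1 at 0.03 and Tomm40 at -0.05 among the mass genes. The strain test passed 8 of 8, 11 of 11 and 9 of 14 of them, beside 88.3% of all genes. Cyc1, the cytochrome c1 of complex III, ranged from 12.94 to 13.32 and Atpif1, the inhibitor of complex V, from 13.48 to 13.79. Suclg2, a subunit of succinyl-CoA ligase, ranged from 8.54 in NOD/LtJ to 9.59 in CE/J, Idh3b from 13 to 13.43, Hspe1, a mitochondrial chaperonin, from 11.39 in A/J to 12.19 in BALB/cJ, and the phosphate carrier Slc25a3 from 13.41 to 13.84.

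Markers of other cell types gave differing values under fluoxetine. For the 3 measured parvalbumin interneuron markers the median difference was -0.05. Pvalb was at -0.07, Kcnc1 at -0.05 and Gad1 at 0.03 (limma adjusted p = 0.24, 0.293 and 0.507). Pvalb and Kcnc1 had an unadjusted limma p under 0.05, a mark that 8.0% of all genes passed lower. The median difference was 5e-05 for the 4 neuron markers, 0.00084 for the 5 microglia markers, 0.04 for the 5 astrocyte markers and -0.25 for the 5 oligodendrocyte markers. Of the last, 4 had an unadjusted limma p under 0.05, all with a difference below 0, where 8.0% of all genes passed that mark lower. The smallest p was that of Mal, a myelin protein, at -0.29 (SE 0.0722; limma adjusted p = 0.0764). Among the astrocyte markers Gfap, a filament protein, was at 0.43 (SE 0.141; limma adjusted p = 0.142), Aqp4 at 0.09, Aldh1l1 at 0.04, Slc1a3 at 0.02 and Gja1 at -0.00058. None of these passed after adjustment, and their part in the differences of the 76 genes was not tested.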

How the data were processed

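Affymetrix expression arrays were read from the intensity table deposited by the authors: linear intensities per probe set and array, for which the submitters' processing notes name GCRMA; its version is not given in the sources. The method subtracts background by probe sequence and normalizes across arrays, so values near the floor are compressed. Values were transformed to log2 without a pseudocount. Of 45101 probe sets, 34945 carried 1 gene symbol and were used. Another 932 carried more than 1 symbol, 9160 carried none and 64 were control probe sets. The brightest probe set stood for its gene. Entrez numbers of 18032 genes matched the RefSeq gene table, including all 81 genes described, and 0 symbols changed.

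limma 3.58.1 in R 4.3.3 (lmFit and eBayes, two-sided) was fitted to the 11886 genes at log2 4 or more in at least 6 arrays, with treatment and strain as terms. Strain was the block because the label gave 1 water and 1 fluoxetine array per strain. As a check of this pairing, the water array correlated best with the fluoxetine array of its own strain in 30 of 30 strains, at 0.519 to 0.855 for deviations from the group means. P-values were adjusted by Benjamini-Hochberg over all genes (threshold 0.05), and the script was tested on simulated data. With strain in the fit, p-values of both tests are set against the spread of the within-strain differences. Arrays hold pools of 3 mice, so this is a spread of pools, not of single mice. No hybridization batch was given in the sources used here.

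The genes and lists were chosen with earlier results of these data known. The genes named were, per complex, the 3 with the smallest strain p and the 2 with the smallest treatment p, the tissue isoforms, the 4 Sdh genes and, from each list, the 2 with the smallest p of each kind; others were chosen after their values were seen. Alternatives were the filter, the choice of probe set, normalization, the variance prior, the block and leaving out each strain.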

Additional observations from a re-analysis of the deposited data

How the results depend on the processing

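Across 38 alternatives 0 respiratory chain genes passed the limma threshold for fluoxetine, and the median difference stayed below 0. It was -0.0064 without a replicate block on strain, where no gene had an unadjusted p under 0.05, either. It was -0.0099 after quantile normalization, -0.0041 after median centring, -0.0088 when all probe sets of a gene were averaged and, with single strains left out, -0.011 to -0.0023. Leaving out C57BR/cdJ gave the value nearest 0, -0.0023. The count at an unadjusted p under 0.05 was 0 to 2; it was 2 without FVB/NJ, without CBA/J, with median centring, with averaged probe sets and without the _x_at and _s_at probe sets. The strain test passed 67 of 71 to 73 of 81 genes, and 68 to 72 of 76 with single strains left out. Ndufs4 lost the strain call with averaged probe sets (limma adjusted p = 0.102). The number of calls over all genes for fluoxetine, 7, ran from 0 to 21 over the alternatives, with 21 without RIIIS/J.

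With 1 array per strain and treatment, the response of a single strain has no error, and probe sets near the floor, such as those of Cox6b2 and Cox8b, resolve little.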
